A study of Drosophila melanogaster with 4 samples.

Results

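Transcripts of cell cycle and DNA replication genes were followed in wing imaginal discs of Drosophila larvae, the epithelial sacs from which the adult wings form. The 42 genes were taken by name as genes of the cycle, out of 14061 genes that could be named in the annotation of the files. They were split by role into 9 regulators of G1 and of entry into S phase, 16 genes of DNA replication and 17 genes of mitosis. All 42 were found, each with its most abundant annotation entry, and all passed the limit of a mean of 10 reads that left 8872 genes for description. An entry is a stretch of exons shared by 1 set of transcripts, so that a gene may have several.

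The discs came from larvae in the third instar, of 4 genotypes, and all larvae were female by the study's methods. In the first, sd::Gal4 drives FH-cortoCD, the Flag and HA tagged chromodomain of the chromatin protein Corto with a nuclear localization signal. In the second, sd::Gal4 drives RpL12-Myc, a tagged protein of the large ribosomal subunit. The sd::Gal4/+ discs carry the driver and no transgene, and the w1118 discs carry neither. Gal4, an activator from yeast, is made where the scalloped promoter is active in the disc, so the transgenes are not made in every cell. Each library held polyadenylated RNA from a pool of 300 discs, dissected in 6 batches of 50, and there was 1 library for each genotype. None of the values below therefore has a replicate, every test compares the reads of 2 libraries and not genotypes, and the intervals cover counting error only.

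In a proliferating disc the decision to replicate is made in G1. Cyclin D with Cdk4 acts in G1, cyclin E with Cdk2 drives the entry into S phase, and Dacapo, a Cdk inhibitor, holds cyclin E and Cdk2 back. Active E2f1 with its partner Dp turns on genes of DNA synthesis, and Rbf holds it inactive while bound to it. Origins are marked by the origin recognition complex, the Mcm helicase is loaded there by Dup (the fly Cdt1) and others, and Geminin blocks a further round of loading. In wing discs the entry into mitosis is set by String, the Cdc25 phosphatase that activates Cdk1, and exit follows when the anaphase-promoting complex, with Fzy or Fzr, marks cyclins and securin for destruction.

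Over both reads of each pair, the FH-cortoCD library held 43698298 counts, the RpL12-Myc library 44736060, the sd::Gal4/+ library 35219666 and the w1118 library 26833482. Levels are given as counts-per-million after TMM scaling (CPM), and fold changes as log2 ratios of the scaled counts. The labels of the public record contradict each other, since the title of each transgene sample names 1 transgene and its genotype field the other. The titles were used here, and the numbers of alignments behind each file match those that the study's supplement lists under the library named in the title. Against sd::Gal4/+, the main entry of RpL12 had a log2 fold change of 0.49 under the label FH-cortoCD and of 0.16 under the label RpL12-Myc, and that of corto had -0.58 and -0.29 under these labels. In w1118 the values were -0.46 for RpL12, whose entry has only 255 bases, and -0.17 for corto. Each targeted gene thus had its higher value under the label of the other transgene, although the corto entry spans far more than the chromodomain. The libraries are named below by their labels for that reason. All 15 wing disc markers were detected in every library, with summed levels of 1903 CPM in FH-cortoCD and 1843 CPM in RpL12-Myc, against 2416 CPM in sd::Gal4/+ and 2501 CPM in w1118. The 8 midgut markers summed to 40.5 CPM in FH-cortoCD and 281 CPM in RpL12-Myc, against 0.366 CPM in sd::Gal4/+ and 0.965 CPM in w1118, and 6 of them were at 0 in at least 1 library. The 6 fat body markers summed to 662 and 948 CPM in these assay libraries, against 1382 CPM in sd::Gal4/+ and 60.8 CPM in w1118. The part of other tissues in the values below was not tested, and in a pool of whole discs fewer cells of a type cannot be told apart from less RNA per cell.

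Most cell cycle genes differed little between the libraries. In the library labelled FH-cortoCD, 2 of the 42 (PCNA and geminin) had a log2 fold change above 0.5 against sd::Gal4/+, where 14.5% of all 8872 genes tested did, and 5 (Mcm10, E2f1, fzr, dap and pim) were below -0.5, where 15.1% of all genes were. In the library labelled RpL12-Myc, 2 (PCNA and Mcm3) were above 0.5, against 12.8% of all genes, and 6 (E2f1, pim, dap, CycD, Mcm10 and fzr) were below -0.5, against 16.2%. Between the controls, w1118 against sd::Gal4/+, no member passed this limit in either direction, against 3.71% of all genes above it and 7.12% below. The members were deeply counted, with 257 to 13301 reads in each library. Among the 6260 genes with at least as many reads as the shallowest member, 10.8% were above 0.5 and 10.3% below -0.5 in FH-cortoCD, 9.5% and 10.5% in RpL12-Myc, and 0.176% and 1.05% in w1118. The members' shares of 4.76% above and 11.9% below in FH-cortoCD, and of 4.76% and 14.3% in RpL12-Myc, are to be read beside these. The spans of 12 members' entries, introns included, overlap that of an entry of another gene on the opposite strand, and reads in exons common to both cannot be told apart. The assays share the sd::Gal4/+ library, so a count of that library alone moves both values of a gene together.

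**Figure D1:**
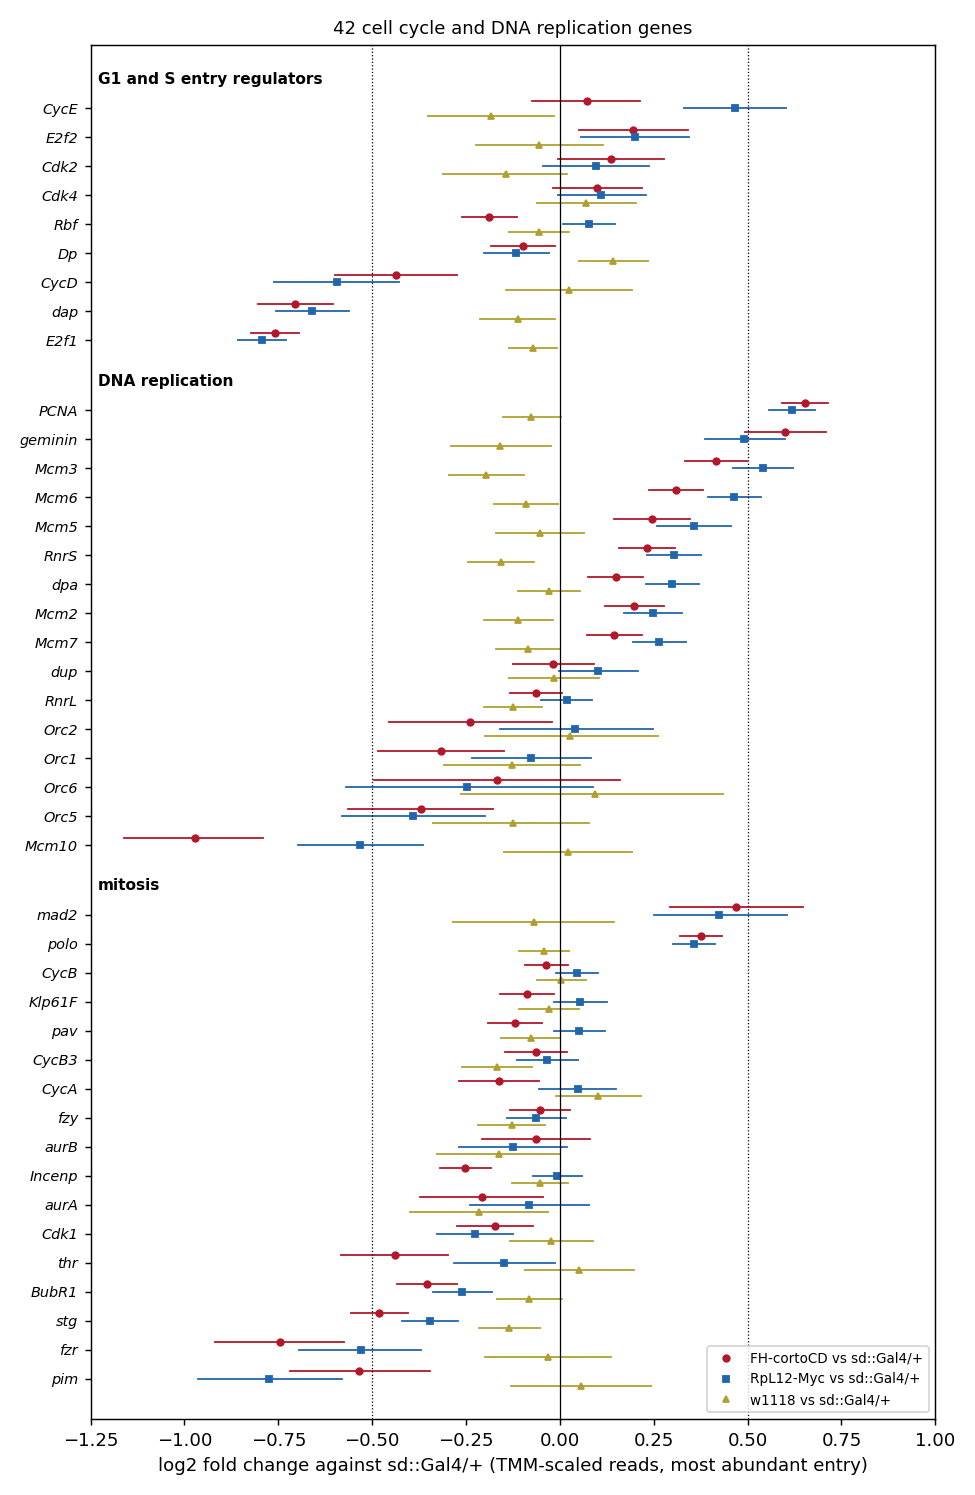
Log2 fold changes of the 42 members at their most abundant entry against sd::Gal4/+ (x axis), for the libraries labelled FH-cortoCD (circles), RpL12-Myc (squares) and w1118 (triangles), by role and, within a role, by the mean of both assays. Lines are 95% exact binomial intervals and cover counting error only, and dotted lines mark 0.5 and -0.5. The w1118 values lie between -0.21 and 0.14, while the assays reach 0.65 (PCNA) and -0.97 (Mcm10).

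The median log2 fold change of the 42 was -0.08 in FH-cortoCD, 0.04 in RpL12-Myc and -0.07 in w1118, beside 0.0021, 0.02 and -0.01 over all genes. No test between the roles was run, and their values overlapped. The 16 replication genes had medians of 0.15 in FH-cortoCD and 0.26 in RpL12-Myc, with 9 and 12 of them above 0. The 17 mitosis genes had medians of -0.16 and -0.06, with 2 and 6 of them above 0. The 9 G1 and S entry regulators had medians of -0.10 and 0.08. In w1118 these medians were -0.09, -0.05 and -0.06. They depend on the scaling, because without it all genes of FH-cortoCD shift up by 0.25 and all those of RpL12-Myc by 0.31, and the mitosis medians become 0.09 and 0.24.

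A call used the limits of the study, a log2 fold change beyond 1 in either direction with an adjusted p below 4e-18, but the p came from edgeR's binomial test, whereas the study used the older sage.test of the statmod package. So judged, an entry of 2 members was called lower in FH-cortoCD (CycE and E2f1) and of 3 in RpL12-Myc (CycE, E2f1 and CycA). None was called higher in either. Over all 14061 genes, 4.2% had a called entry in FH-cortoCD and 4.42% in RpL12-Myc, in either direction. These shares include genes with too few reads to be called easily. Of the 6260 deeply counted genes, 224 had an entry called higher and 288 lower in FH-cortoCD, and 136 and 390 in RpL12-Myc. No member had a called entry in w1118, where 0.398% of all 14061 genes did. The study chose its p limit on w1118 against sd::Gal4/+, so that few transcripts passed there. A low share in w1118 was thus largely set beforehand, here and below. At the most abundant entry no member had a change beyond 1, and the calls of CycE and CycA rest on the last exon stretch of the gene. With the limit on the fold change dropped, the adjusted p of the most abundant entry was below 4e-18 for 12 members in FH-cortoCD, 18 in RpL12-Myc and 0 in w1118. Of all genes tested, 21% passed in FH-cortoCD, 20.9% in RpL12-Myc and 2.09% in w1118, and of the 6260 deeply counted genes 28.4%, 28% and 2.43% did. The members' shares were 28.6%, 42.9% and 0%. This test leaves out variation between libraries of 1 genotype, and it counts both reads of a pair apart. The control libraries are of different genotypes, so the dispersion between them is not that variation either. With an exact test that uses the dispersion between the control libraries, 0.0132, no member kept its call in FH-cortoCD and only E2f1 kept it in RpL12-Myc, whereas at an adjusted p below 0.05 under the same exact test the 2 and 3 members were called again.

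Among the G1 and S entry regulators, E2f1 and dap stood lowest. E2f1, the activator of S phase genes (main entry on the minus strand of chromosome 3R, 17446026 to 17451615 in dm3), had 155 CPM in FH-cortoCD and 151 CPM in RpL12-Myc, against 262 CPM in sd::Gal4/+ and 249 CPM in w1118. Both assays were well below both controls, and the log2 fold changes were -0.76 (95% interval -0.82 to -0.69) and -0.79 (-0.86 to -0.73), with -0.07 in w1118. dap, which encodes the Cdk inhibitor Dacapo (chromosome 2R, 5599828 to 5603607), had 66.9 CPM in FH-cortoCD and 69.1 CPM in RpL12-Myc, against 109 CPM in sd::Gal4/+ and 101 CPM in w1118. Its log2 fold changes were -0.71 (-0.81 to -0.61) and -0.66 (-0.76 to -0.56), with -0.11 in w1118. An activator of the cycle and a brake on it were thus lower in the same libraries. CycD, the G1 cyclin with the fewest reads per kilobase of this group (24.3 CPM per kb), had 27.7 CPM in FH-cortoCD and 24.8 CPM in RpL12-Myc, against 37.4 CPM in sd::Gal4/+ and 38.0 CPM in w1118. Its log2 fold changes were -0.44 and -0.59, and here too the groups of libraries did not overlap. These CycD values are those of its last exon stretch, and the entries upstream, given below, were not lower to this extent. Of all genes tested, 33.5% had both assays below both controls.

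The highest values of this group were modest. CycE had 41.8 CPM in FH-cortoCD and 55.1 CPM in RpL12-Myc at its main entry, against 39.8 CPM in sd::Gal4/+ and 35.1 CPM in w1118. The library labelled RpL12-Myc stood apart, with a log2 fold change of 0.47 (0.33 to 0.60), while that of FH-cortoCD was 0.07 (-0.07 to 0.21). E2f2, which acts mostly as a repressor, had 43.2 and 43.3 CPM in FH-cortoCD and RpL12-Myc, against 37.7 CPM in sd::Gal4/+ and 36.3 CPM in w1118, a log2 fold change of 0.20 in each assay. Cdk2, the partner of cyclin E, had 44.9 and 43.6 CPM in FH-cortoCD and RpL12-Myc, against 40.8 CPM in sd::Gal4/+ and 36.9 CPM in w1118, and its interval against sd::Gal4/+ included 0 in both assays. Dp, the E2F partner with the most reads per kilobase of the group (70.7 CPM per kb), had 109 CPM in FH-cortoCD and 108 CPM in RpL12-Myc, against 117 CPM in sd::Gal4/+ and 129 CPM in w1118. Cdk4, the partner of cyclin D, had log2 fold changes of 0.10 in FH-cortoCD and 0.11 in RpL12-Myc, and Rbf, the fly retinoblastoma protein, of -0.19 and 0.08. Genes whose proteins work as a pair were compared at their main entries only. CycD minus Cdk4 was -0.54 in FH-cortoCD and -0.70 in RpL12-Myc. E2f1 minus Dp was -0.66 and -0.68, and CycE minus Cdk2 was -0.07 and 0.37.

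The replication genes held the highest value of all members in both assays (PCNA) and the lowest in FH-cortoCD (Mcm10), while in RpL12-Myc the lowest was that of E2f1. PCNA, the sliding clamp of the DNA polymerases (minus strand of chromosome 2R, 16149259 to 16150362), had 282 CPM in FH-cortoCD and 276 CPM in RpL12-Myc, against 180 CPM in sd::Gal4/+ and 170 CPM in w1118. It was the only member above 0.5 in both assays, with log2 fold changes of 0.65 (0.59 to 0.72) and 0.62 (0.56 to 0.68), and it had the most reads per kilobase of the replication genes, 217 CPM per kb. geminin, the inhibitor of origin licensing (minus strand of chromosome 2R, 2542968 to 2543955), had 95.2 CPM in FH-cortoCD and 88.3 CPM in RpL12-Myc, against 62.8 CPM in sd::Gal4/+ and 56.3 CPM in w1118, with log2 fold changes of 0.60 (0.49 to 0.71) and 0.49 (0.39 to 0.60). The gene of its target, dup, had -0.02 and 0.10, so that the licensing inhibitor and the licensing factor differed by 0.62 and 0.39 on the log2 scale. PCNA and geminin both lay above both controls in both assays, as did 37.4% of all genes tested.

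The 6 subunits of the replicative helicase, Mcm2, Mcm3, dpa (the fly Mcm4), Mcm5, Mcm6 and Mcm7, had values of 1 sign. Mcm3 had 149 CPM in FH-cortoCD and 162 CPM in RpL12-Myc, against 112 CPM in sd::Gal4/+ and 97.5 CPM in w1118. Its log2 fold changes of 0.42 (0.33 to 0.50) and 0.54 (0.46 to 0.62) were the highest of the 6. The range over the 6 was 0.14 to 0.42 in FH-cortoCD, with a median of 0.22, and 0.25 to 0.54 in RpL12-Myc, with a median of 0.33. All 6 were above 0 in both assays and all 6 were below 0 in w1118, with a range of -0.20 to -0.03. All 6 were also lower in FH-cortoCD than in RpL12-Myc, by 0.05 to 0.16. Only Mcm3 in RpL12-Myc passed 0.5. The levels of the 6, whose proteins form a ring with 1 copy of each, ranged over 1.85-fold per kilobase, from 34.8 CPM per kb (Mcm5) to 64.2 CPM per kb (Mcm7).

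Mcm10, a replication factor that is not part of the helicase ring, went the other way. It had 18.3 CPM in FH-cortoCD and 24.8 CPM in RpL12-Myc, against 35.9 CPM in sd::Gal4/+ and 36.4 CPM in w1118 (chromosome 2L, 21179941 to 21182812). Its log2 fold changes were -0.97 (-1.16 to -0.79) and -0.53 (-0.70 to -0.36). Over 419 bases its entry overlaps that of Ret on the opposite strand, and the libraries do not keep the strand. Ret itself had -0.89 and -1.41, and its part in the Mcm10 value was not tested. The 4 origin recognition genes were scarcer than the helicase genes and none passed 0.5. Orc5 had 20.2 CPM in FH-cortoCD and 19.9 CPM in RpL12-Myc, against 26.1 CPM in sd::Gal4/+ and 23.9 CPM in w1118, and Orc6, with the fewest reads per kilobase (8.65 CPM per kb), had 7.66 CPM in FH-cortoCD and 7.26 CPM in RpL12-Myc, against 8.61 CPM in sd::Gal4/+ and 9.18 CPM in w1118. The median of the 4 was -0.28 in FH-cortoCD and -0.16 in RpL12-Myc. The remaining subunits, which are not among the 42, had 0.19 and 0.04 (Orc3) and -0.16 and -0.31 (Orc4), with -0.24 and -0.29 in w1118. For Orc6 the intervals, -0.50 to 0.16 and -0.57 to 0.09, included 0, and a difference was not detectable at this depth. The subunits of ribonucleotide reductase, which makes the DNA precursors, differed: RnrS had 0.23 and 0.30, and RnrL had -0.06 and 0.02.

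**Figure D2:**
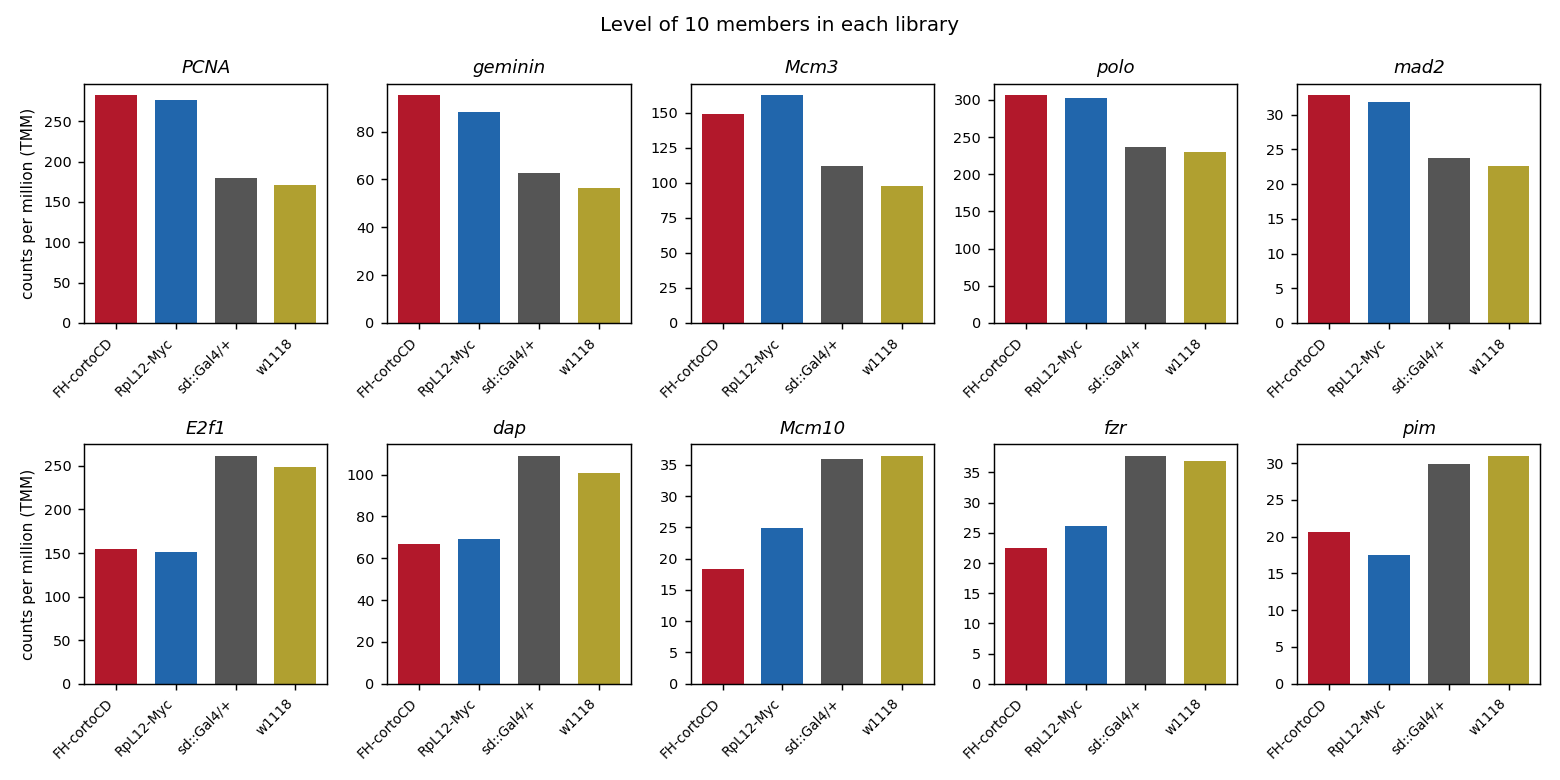
TMM-scaled CPM (y axis, from 0) of 10 members in the libraries labelled FH-cortoCD, RpL12-Myc, sd::Gal4/+ and, last, w1118 (bars, 1 library each). In the upper row both assays are above both controls, as for PCNA with 282 and 276 CPM against 180 and 170 CPM. In the lower row both are below, as for dap with 66.9 and 69.1 CPM against 109 and 101 CPM. Of all genes tested, 37.4% lie above and 33.5% below in this way.

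Of the mitosis genes, mad2 and polo stood highest. polo, the mitotic kinase with the most reads per kilobase of this group (146 CPM per kb), had 307 CPM in FH-cortoCD and 303 CPM in RpL12-Myc at its main entry, against 236 CPM in sd::Gal4/+ and 229 CPM in w1118, with log2 fold changes of 0.37 (0.32 to 0.43) and 0.36 (0.30 to 0.41). mad2, which acts in the spindle checkpoint, had 32.8 CPM in FH-cortoCD and 31.8 CPM in RpL12-Myc, against 23.7 CPM in sd::Gal4/+ and 22.6 CPM in w1118, with 0.47 (0.29 to 0.65) and 0.43 (0.25 to 0.60). An opposite-strand gene, kri, shares 97 bases with it and had 0.49 and 0.47. CycB, the mitotic cyclin that came next in the order, had 246 CPM in FH-cortoCD and 260 CPM in RpL12-Myc, against 252 CPM in sd::Gal4/+ and 253 CPM in w1118, and its intervals included 0 in both assays.

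The lowest mitosis genes act at the exit from mitosis and at its start. fzr, the activator of the anaphase-promoting complex in late mitosis and G1 (minus strand of chromosome X, 4561315 to 4570605), had 22.5 CPM in FH-cortoCD and 26.1 CPM in RpL12-Myc, against 37.8 CPM in sd::Gal4/+ and 36.9 CPM in w1118. Its log2 fold changes were -0.74 (-0.92 to -0.57) and -0.53 (-0.70 to -0.37), whereas those of fzy, the activator used at anaphase, were -0.05 and -0.06. pim, the fly securin (chromosome 2L, 10362989 to 10364046), had 20.6 CPM in FH-cortoCD and 17.5 CPM in RpL12-Myc, against 29.8 CPM in sd::Gal4/+ and 31.0 CPM in w1118, with -0.53 (-0.72 to -0.35) and -0.77 (-0.96 to -0.58). stg, the gene of String, had 121 CPM in FH-cortoCD and 133 CPM in RpL12-Myc, against 169 CPM in sd::Gal4/+ and 154 CPM in w1118, with -0.48 (-0.56 to -0.40) and -0.35 (-0.42 to -0.27). For these genes too every assay value lay below every control value, as it did for 33.5% of all genes tested.

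thr, which encodes a fly subunit of separase and had the fewest reads per kilobase of the group (10.4 CPM per kb), had 35.8 CPM in FH-cortoCD and 43.8 CPM in RpL12-Myc, against 48.5 CPM in sd::Gal4/+ and 50.3 CPM in w1118. Its log2 fold changes were -0.44 (-0.58 to -0.30) and -0.15 (-0.28 to -0.01). CycA, a cyclin of S phase and mitosis, had 69.4 CPM in FH-cortoCD and 80.2 CPM in RpL12-Myc at its main entry, against 77.6 CPM in sd::Gal4/+ and 83.4 CPM in w1118, so that the libraries overlapped. The other 9 mitosis genes lay between -0.35 and 0.05 in both assays. BubR1, a checkpoint kinase, had -0.35 and -0.26, Cdk1 -0.17 and -0.23, and aurA and aurB, the Aurora kinases, -0.21 and -0.08 and -0.06 and -0.12. Incenp, the scaffold of the Aurora B complex, had -0.25 in FH-cortoCD and -0.01 in RpL12-Myc. The motor proteins Klp61F (-0.09 and 0.05) and pav (-0.12 and 0.05), together with CycB3 (-0.06 and -0.03) and fzy, were within 0.13 of 0.

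Both controls can be set against both assays. For 15 of the 42 members both assay libraries lay above both control libraries in CPM, where this was so for 37.4% of all genes tested, and for 13 both lay below, where it was so for 33.5%. The 15 were made up of 9 replication genes, 4 G1 and S entry genes and 2 mitosis genes, and the 13 of 3, 4 and 6. The libraries of the remaining 14 members overlapped, 9 of them mitosis genes. In 30 members, or 71.4%, both assay fold changes were larger in size than the w1118 value, where this was so for 63.9% of all genes tested and 70.1% of the deeply counted ones.

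The assays were also set against each other. No member differed by more than 0.5 between FH-cortoCD and RpL12-Myc, against 6.81% of all genes above 0.5 and 4.59% below -0.5. Of the deeply counted genes only 1.77% were above 0.5 and 0.495% below -0.5, so few members could be looked for there. No member had a called entry, against 0.363% of all named genes. The members ranged from -0.44 (Mcm10) to 0.24 (pim), with a median of -0.08, and 28 of the 42, or 66.7%, were lower in FH-cortoCD, where 52.4% of all genes tested and 56% of the deeply counted ones were. The adjusted p of the edgeR binomial test was below 4e-18 for 2 of the 42, Rbf with -0.27 and Incenp with -0.25, and for 4.51% of all genes tested. CycE, at -0.40, had the next lowest value after Mcm10.

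Within several genes the entries did not share 1 fold change. The 42 members have 82 entries, 31 members have a single one, and 10 have more than 1 entry averaging 100 reads or more. In 8 members the first and the last of these entries, taken by the middle of the span, do not overlap. In 5 of the 8 (CycE, CycA, CycD, polo and E2f1) the 3′-most was lower than the 5′-most in both assays. For E2f1 this depends on the entry taken as 5′-most. That entry spans 17451746 to 17486127, introns included, and had -0.34 and -0.35. The called E2f1 entries within that span, given below, were lower than the 3′-most. In Dp, whose entries overlap, the one reaching farthest 3′ (9112829 to 9115714 on chromosome 2R) had -0.37 and -0.45, and the one starting farthest 5′ had -0.10 and -0.12. In CycE the last entry (minus strand of chromosome 2L, 15727762 to 15729156) had 857 reads in FH-cortoCD and 846 in RpL12-Myc, against 1558 reads in sd::Gal4/+ and 1230 reads in w1118, and fell by 1.11 and 1.19 on the log2 scale (adjusted p = 7.43e-76 and 7.87e-86, edgeR binomial test). The entry next to it, 15729274 to 15730836, had 1769 reads in FH-cortoCD and 2421 in RpL12-Myc, against 1415 reads in sd::Gal4/+ and 982 reads in w1118, which is the 0.07 and 0.47 given above. In w1118 the last entry was at 0.0031. The same gene was thus lower or higher in the assays according to the exons counted.

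CycA repeated this pattern. Its last entry (minus strand of chromosome 3L, 11819818 to 11820905) had 2167 reads in FH-cortoCD and 2093 in RpL12-Myc, against 3433 reads in sd::Gal4/+ and 2667 reads in w1118. It fell by 1.02 on the log2 scale in RpL12-Myc (adjusted p = 2.97e-147, edgeR binomial test), and its value in FH-cortoCD, -0.91, did not reach the limit of 1. The main entry upstream of it had -0.16 and 0.05, and over 1815 bases its span overlaps that of CG7264 on the opposite strand, which had 21 reads in FH-cortoCD and 23 in RpL12-Myc, against 7 reads in each control. polo had 0.37 and 0.36 at its main entry (chromosome 3L, 20303105 to 20305711), but -0.32 and -0.43 at the entry that ends the gene (20305779 to 20306566). CycD had -0.44 and -0.59 at its main entry, which is the last, and 0.71 and 0.28 at an entry of 230 bases near its 5′ end. Of the longer entries upstream of the main one, that of 1139 bases had 0.14 and 0.06, and that of 686 bases 0.02 and -0.0009. The lower value of CycD was thus that of its last exon stretch.

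**Figure D3:**
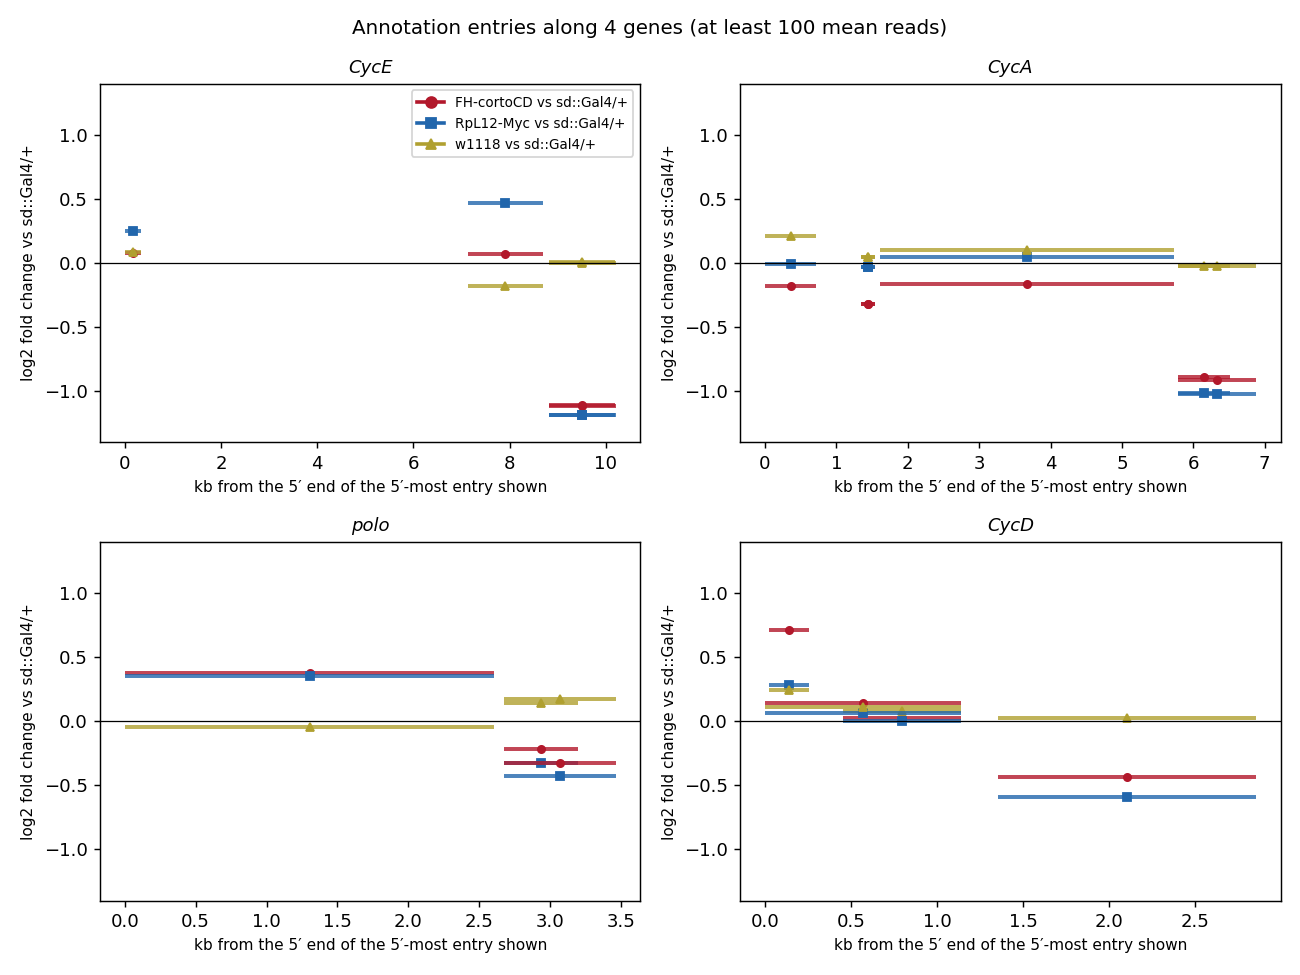
Log2 fold changes against sd::Gal4/+ (y axis) of the annotation entries of CycE, CycA, polo and CycD with at least 100 mean reads, placed by their distance in kb from the 5′ end of the first entry (x axis). Each bar spans 1 entry, introns included, with a marker at its middle. The last stretch of each gene is the lowest in both assays (for CycE -1.11 in FH-cortoCD and -1.19 in RpL12-Myc), while the w1118 values stay within 0.25 of 0.

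E2f1 was below sd::Gal4/+ in both assays at all 5 entries, but not evenly. Its called entries lie upstream of the main one. The entry of 353 bases at 17463475 to 17463827 had 120 reads in FH-cortoCD and 82 in RpL12-Myc, against 569 reads in sd::Gal4/+ and 340 reads in w1118, and fell by 2.49 and 3.09 (adjusted p = 1.43e-87 and 2.15e-113, edgeR binomial test). The entry of 890 bases at 17457855 to 17458744 had log2 fold changes of -1.49 and -1.37, and was called in each. Both are annotated for 1 transcript each. The entry of 827 bases at 17451746 to 17452572, shared by 2 transcripts, had -0.33 and -0.36. The annotation entries therefore disagree on the size of the difference and not on its sign. Cdk2, Cdk4 and CycB went the other way from CycE in both assays, with a higher value in the 3′-most entry than in the 5′-most. The differences were 0.28 and 0.21 in Cdk2, 0.50 and 0.50 in Cdk4, and 0.04 and 0.17 in CycB. In w1118 they were -0.28 in Cdk2, 0.41 in Cdk4 and 0.21 in CycB, so those of Cdk4 and CycB were not particular to the assays.

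The position of an entry moved with the fold change in the whole annotation. In 1828 genes with non-overlapping entries of at least 100 mean reads at both ends, the 3′-most entry was lower than the 5′-most in 78% in FH-cortoCD and in 73.1% in RpL12-Myc, with median differences of -0.41 and -0.37. In w1118 it was lower in 54.7%, with a median of -0.03. For the 8 members with such entries the count was 5 in each of the 3 comparisons, with medians of -0.56, -0.61 and -0.15. This comparison was chosen after the values of CycE and CycA had been seen. Its part in the values of the 31 members with a single entry was not tested, because such an entry covers the whole gene.

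The level of a member also went along with its fold change. Over the 42 members the log2 level per kilobase and the log2 fold change had a Pearson r of 0.54 in FH-cortoCD and 0.44 in RpL12-Myc (Spearman rho 0.48 and 0.42), and of -0.15 in w1118 (rho -0.12). Over the 6260 genes of at least the shallowest member's depth, r was 0.15, 0.08 and -0.10. These are descriptions across genes, which are not independent replicates and share the same libraries and the same control. The abundant PCNA and polo were above 0 and the scarce Mcm10, fzr, thr and Orc5 below it, while E2f1 was abundant and low. Against the log2 length of the entry, r was -0.32 in FH-cortoCD and -0.10 in RpL12-Myc. The 10 members with entries over 3 kb had medians of -0.25 and -0.01, and all genes of that length had -0.07 and -0.01.

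**Figure D4:**
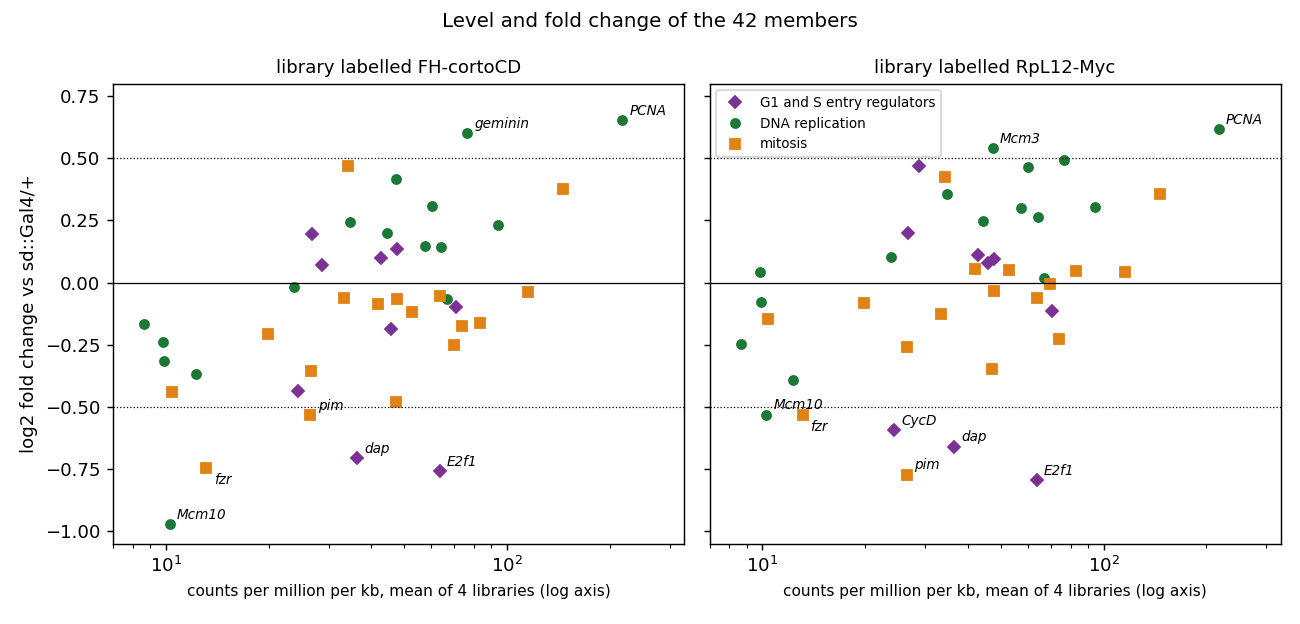
Log2 fold change against sd::Gal4/+ (y axis) and mean level over the 4 libraries in CPM per kilobase (x axis, log scale) of the 42 members, in the library labelled FH-cortoCD (left) and in that labelled RpL12-Myc (right), with a symbol for each role. Members beyond the dotted lines at 0.5 and -0.5 are named. Across genes r is 0.54 in FH-cortoCD and 0.44 in RpL12-Myc.

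Other genes of the same pathways were described in the same way. Of 34 further replication genes, among them polymerases, clamp loaders and the GINS and RPA complexes, 32 were found and none had a called entry. Their medians were -0.07 in FH-cortoCD and 0.01 in RpL12-Myc, with 1 gene above 0.5 in each and 3 and 1 below -0.5. Psf1, a GINS subunit of the active helicase, had 17.3 CPM in FH-cortoCD and 18.6 CPM in RpL12-Myc, against 10.97 CPM in sd::Gal4/+ and 12.8 CPM in w1118, which are log2 fold changes of 0.65 and 0.76. The clamp loader subunit RfC38 had 0.40 and 0.40, and Prim2, of primase, 0.26 and 0.49. Lowest were RPA3, of the complex that binds single-stranded DNA (-0.35 and -0.69), Gnf1, the large subunit of the clamp loader (-0.56 and -0.45), and chif, the fly Dbf4, which activates the Cdc7 kinase at origins (-0.47 and -0.41). RPA3 was also low in w1118, at -0.45. The clamp PCNA and the large subunit of its loader thus had opposite signs.

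Of 47 further mitosis genes, all were found, and their medians were -0.13 and 0.0018, with 0 and 3 above 0.5 and 6 and 5 below -0.5. vtd, the Rad21 subunit of cohesin, was called lower at its main entry in both assays. It had 48.1 CPM in FH-cortoCD and 41.8 CPM in RpL12-Myc, against 105 CPM in sd::Gal4/+ and 111 CPM in w1118, and fell by 1.13 and 1.33 on the log2 scale, while w1118 was at 0.07. tws, a regulatory subunit of phosphatase PP2A, had -0.62 and -0.76, and SAK, the kinase of centriole duplication, -0.61 and -0.75. The highest were Cdc23 (0.39 and 0.62) and shtd (0.46 and 0.50), both subunits of the anaphase-promoting complex, and cid, the centromeric histone (0.44 and 0.61). Further subunits of that complex had lower values, -0.27 and -0.30 (Cdc16), -0.20 and -0.04 (Cdc27), -0.20 and -0.07 (mr), and 0.03 and 0.16 (ida).

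Of a mixed list of 26 checkpoint genes, regulators of Cdks, and further cyclins and Cdks, those that act in transcription included, 25 were tested, with medians of -0.01 and -0.04, 3 and 2 above 0.5, and 3 and 2 below -0.5. Claspin, a mediator of the replication checkpoint, had 29.8 CPM in FH-cortoCD and 27.0 CPM in RpL12-Myc, against 50.2 CPM in sd::Gal4/+ and 50.6 CPM in w1118, with -0.75 and -0.89. twe, a Cdc25 phosphatase known from meiosis, had -0.81 and -0.69, and Rad17 -0.54 and -0.19. Hus1-like had 0.70 and 0.59, Cks85A 0.68 and 0.50, and CycH, of the Cdk-activating kinase, 0.57 and 0.50. The 7 genes of a list of DREAM and E2F complex genes, HDAC1 and Myb included, had medians of -0.04 and 0.01 and none passed 0.5.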

How the data were processed

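For read 1 and read 2 apart, the authors deposited a raw count of alignments over the exons of each of 30950 annotation entries, and a ratio, the fraction of all transcript alignments, used here only to check the labels. By the study's methods, reads were aligned with Bowtie to dm3 and those with several matches were removed. The kit did not mark strand. Here the counts of both reads were summed. A read in overlapping entries counts more than once, and totals were 1.26 times the alignments. Of the entries, 27902, with 92.5% of counts, were given 1 gene name from the reference annotation by transcript identifier, and coordinates are those of the files.

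Libraries were compared with edgeR 4.0.16 (R 4.3.3), using its binomial test (the successor of the sage.test run by the authors) on TMM library sizes, with Benjamini-Hochberg adjustment over all entries. Fold changes have 0.5 added to each count. Intervals are exact binomial (Clopper-Pearson, 95%) on counts divided by 2, since a pair is 1 fragment, and they reached 0.06 to 0.33 to either side. The tests used the undivided counts, so their p-values are smaller than counts of fragments would give. Alternatives were total counts, DESeq2 1.42.0 size factors, unscaled counts, each read alone, w1118 as control, summed or longest entries, a minimum of 10 reads, a loess correction for length, other limits, and the exact test of edgeR. The script was tested on simulated data.

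Values in every library are given for the 3 highest and 3 lowest members of each role by the mean of both assays, those with the most and fewest reads per kilobase, those with a called entry, and those past 0.5 the same way in both assays. In the other lists of the same pathways the 3 highest and 3 lowest genes with at least 100 reads in every library, and called genes, were named. Above, marker genes were given as sums only, though some had called entries. Of the 15 wing disc markers, 1 was called lower in FH-cortoCD and 2 in RpL12-Myc, and 0 were called higher in either. Among the latter, en had 0.51 at its main entry in RpL12-Myc. Of the 6 midgut markers tested, 3 were called higher in FH-cortoCD, 6 in RpL12-Myc and 0 in w1118. Of the 6 fat body markers, 2, 1 and 6 were called lower in the same order. Over all 14061 genes, 4.2% had a called entry in FH-cortoCD, 4.42% in RpL12-Myc and 0.398% in w1118, in either direction. The members and lists were chosen with earlier results of these data known. Markers of salivary gland, blood cells, neurons, muscle, muscle precursors and trachea were also summed. They had 5.23, 204, 39.5, 112, 108 and 961 CPM in FH-cortoCD, 6.14, 228, 38.8, 115, 117 and 992 CPM in RpL12-Myc, 1.10, 179, 60.3, 60.4, 103 and 713 CPM in sd::Gal4/+, and 7.40, 187, 60.8, 65.9, 119 and 715 CPM in w1118.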

Additional observations from a re-analysis of the deposited data

How the results depend on the processing

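No paired analysis was possible because each genotype has 1 library, and for the same reason no replicate could be left out. Of the members past 0.5, 7 in FH-cortoCD and 8 in RpL12-Myc, all kept their sign under the 10 scaling, read, control, entry and length alternatives, but not all stayed past 0.5. With entries summed CycD was at -0.19 in RpL12-Myc, first reads alone put pim at -0.47 in FH-cortoCD, and in RpL12-Myc the length correction put Mcm10 and fzr at -0.47 each, and fzr was at -0.499 against w1118. Counts and medians moved more. With unscaled counts, 6 members were above 0.5 and 2 below -0.5 in FH-cortoCD, and 13 and 0 in RpL12-Myc. The medians of the G1 and S entry, replication and mitosis genes were then 0.15, 0.40 and 0.0887 in FH-cortoCD and 0.38, 0.56 and 0.24 in RpL12-Myc, and 1 member, E2f1, was called lower in each. Unscaled fold changes hold the difference in library size. Against w1118, 4 members in FH-cortoCD and 5 in RpL12-Myc were above 0.5, and the mitosis medians were -0.059 and 0.041. With all entries of a gene summed, the G1 and S entry median in RpL12-Myc was -0.14. With the length correction, the replication median in FH-cortoCD was 0.26 and 5 members in RpL12-Myc were above 0.5, and second reads alone gave 4. For these the cause was not tested. A fold limit of 0.25 gave 6 above and 12 below in FH-cortoCD and 11 above in RpL12-Myc, and a limit of 1 gave 0 above and 0 below in each. At an adjusted p below 0.05, 1 member, CycE, was also called higher in FH-cortoCD, by a short entry at its 5′ end, and with the p limit kept at 4e-18 and no fold limit 5 members (11.9%) were called higher and 10 (23.8%) lower in FH-cortoCD, against 16.4% and 17.2% of the 6260 deeply counted genes, and 10 (23.8%) and 12 (28.6%) in RpL12-Myc, against 16.9% and 17.4%. CycA lost its call in RpL12-Myc with first reads alone and with the length correction, and Mcm10 gained one in FH-cortoCD with total counts and with second reads alone. The exact test with the control dispersion called 0 lower in FH-cortoCD and 1, E2f1, in RpL12-Myc.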
